A study of Mus musculus with 6 samples.

Results

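The transcription factor gene Atf4 and 9 genes known as its targets in the integrated stress response were followed in tdTomato+ cells sorted from bone marrow stromal cell (BMSC) cultures. The 10 genes were chosen by symbol: Atf4, Ddit3, Ppp1r15a, Trib3, Chac1, Asns, Sesn2, Psat1, Phgdh and Mthfd2. The symbols were found once each among the 17469 genes of the count table, and all 10 passed the filter on low counts that left 12701 genes to test.

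RNA-seq was carried out on the cells, sorted by FACS from cultures of 6-month-old mice. The 3 control libraries came from Ocn-Cre;Ai9 mice and the 3 others from TgAPPswe;Ocn-Cre;Ai9 mice, here called APPswe+, and no library had a treatment. Both genotypes carried Ocn-Cre, in which the osteocalcin promoter drives Cre, and Ai9, a Cre-dependent tdTomato reporter, so the controls differed by lacking the APPswe transgene. TgAPPswe is a human APP gene with the Swedish mutation, placed behind a CAG promoter and a stop cassette that Cre removes, so any cell in which Cre has acted can keep expressing it. For data on these sorted cells n is stated as 3 mice, but not that each library came from a mouse of its own, so the p-values below measure only the spread between libraries, which may be technical.

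Each library held 19340810 to 22037840 estimated counts, and the smallest level taken as detectable, 3 counts, was 0.136 to 0.155 CPM (counts scaled to a common library total). The table row for App rose in APPswe+, with 830 to 852 CPM in the controls and 1140 to 1161 CPM in APPswe+ (TMM-scaled, log2 fold change 0.45, SE 0.0509, edgeR adjusted p = 7.87e-05), and it is not stated whether reads of the human transgene count there. The sorted cells were labelled BMSCs, yet the summed FPKM (fragments scaled to transcript length and library total) of 15 myeloid markers was 18570 to 19410 in the controls and 15540 to 19340 in APPswe+. Lyz2 alone made up 8888 to 9263 FPKM of that sum in the controls and 5379 to 8724 FPKM in APPswe+. The sum over 15 stromal and osteoblast markers was 159 to 177 and 129 to 209 FPKM, and Bglap, the osteocalcin gene itself, was at 0.35 to 1.25 and 0 to 0.49 FPKM. Of the tested markers, 6 of 15 myeloid, 4 of 14 stromal and 1 of 9 neutrophil genes rose, while 6, 2 and 0 fell, where 32.5% of all 12701 genes rose and 31.5% fell by the test described below. Neutrophil markers summed to 18.5 to 59.1 FPKM in the controls and 22.8 to 55.7 FPKM in APPswe+. In such bulk samples, fewer cells of a type and less RNA per cell cannot be told apart.

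In the integrated stress response, kinases that sense misfolded protein, amino acid shortage, double-stranded RNA or lack of heme phosphorylate the translation factor eIF2. General translation then slows, while the Atf4 mRNA, through its upstream reading frames, is translated more. ATF4 pairs with C/EBP and other bZIP proteins on a composite DNA element and switches on genes for amino acid synthesis, uptake and tRNA charging, together with stress regulators such as CHOP and a phosphatase subunit that reverses the phosphorylation. Only RNA was measured here, so the level of ATF4 protein and of phosphorylated eIF2 is not known for these cells.

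The core of that composite element, TGATGNAA, was looked for on both strands from 250 bases before to 50 bases after the start of each gene in RefSeq (GRCm38.p6). All 10 genes had such a window of 300 bases, and 3 of the 10 held a match, against 4.51% of all 27025 genes with such a window. The matches are shown because they lie in Asns, Chac1 and Trib3, which all rose, each with 10 bases on either side, written in the direction of the motif, which stands in capitals. Asns had its match at chr6:7693215-7693242, with the first base of the motif 23 bases before the start and on the strand of the gene. In Chac1 the match lay at chr2:119351039-119351066, 193 bases before the start, and in Trib3 at chr2:152344029-152344056, 15 bases after the start, both on the strand opposite to the gene. Each distance is that of the first base of the motif read along the gene.
Asns: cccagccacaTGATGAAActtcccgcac
Chac1: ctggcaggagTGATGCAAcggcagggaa
Trib3: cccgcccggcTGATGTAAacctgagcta

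The other 7 genes had no match of these letters in the window, and of these Atf4, Ddit3 and Sesn2 also rose. Mthfd2 and Phgdh, likewise without a match, had the largest rise and the largest fall of the 10 on TMM-scaled counts of all 6 libraries. The 250 bases before their RefSeq starts are shown for this contrast in direction, both read along the minus strand, on which both genes lie, at chr6:83317605-83317854 for Mthfd2 and chr3:98339970-98340219 for Phgdh. The Mthfd2 window lies inside the gene span of the GENCODE annotation (chr6:83305691-83325908), so it stands before an inner start. Bases before the outer end of that span were not searched. A match, or none, describes the letters of a window and not the binding of a factor.
Mthfd2: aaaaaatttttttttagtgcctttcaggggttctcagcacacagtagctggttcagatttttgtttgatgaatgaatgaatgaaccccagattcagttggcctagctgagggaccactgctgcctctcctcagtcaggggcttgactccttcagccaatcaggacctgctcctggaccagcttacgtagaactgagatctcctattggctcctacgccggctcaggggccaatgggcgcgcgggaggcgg
Phgdh: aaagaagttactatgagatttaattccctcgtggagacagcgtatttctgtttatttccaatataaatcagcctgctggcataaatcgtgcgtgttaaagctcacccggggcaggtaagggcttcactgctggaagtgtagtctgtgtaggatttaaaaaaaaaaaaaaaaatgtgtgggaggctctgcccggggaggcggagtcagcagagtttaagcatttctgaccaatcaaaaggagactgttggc

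A gene was counted as raised or lowered when its p in edgeR's quasi-likelihood test, adjusted by Benjamini-Hochberg over all genes, was no more than 0.05. By this rule 7 of the 10 genes rose in APPswe+, 2 fell and 1, Ppp1r15a, did not pass. Atf4, Ddit3, Trib3, Chac1, Sesn2, Asns and Mthfd2 rose, and Psat1 and Phgdh, both of serine synthesis, fell. Of all 12701 genes tested, 32.5% rose and 31.5% fell, so a call alone was common. With a log2 fold change of at least 1 required as well, 4 of the 10 rose (Mthfd2, Trib3, Chac1 and Asns) and 1 fell (Phgdh), against 8.90% and 9.20% of all genes. The median log2 fold change of the 10 was 0.90, and that of all genes tested was -0.02. Both counts depend on the scaling. TMM, used here, centres the fold changes near the typical gene, whereas scaling by library size alone moved the median of all genes to -0.23, and then 6 of the 10 rose, 3 fell and their median was 0.69, against 22.1% of all genes raised and 45.9% lowered. With the fold, 2 of the 10 rose by library size only, 1 in limma on log2(FPKM + 1) and 2 without Ocn-Cre;Ai9 replicate 2, while none fell without Ocn-Cre;Ai9 replicate 1 or TgAPPswe;Ocn-Cre;Ai9 replicate 3. By library size only Ppp1r15a fell and Atf4 no longer passed. The 10 proliferation markers all fell, 7 of them with the fold, with sums of 178 to 185 FPKM in the controls and 62.3 to 76.4 FPKM in APPswe+, and their part in the results was not tested. The myeloid markers moved in both directions, 4 of the 15 rising and 5 falling with the fold, among them Adgre1 (1.89) and Aif1 (2.04) upward and Mrc1 (-2.38) and Csf1r (-1.49) downward, examples chosen after their values were seen. Their part was not tested either.

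**Figure D1:**
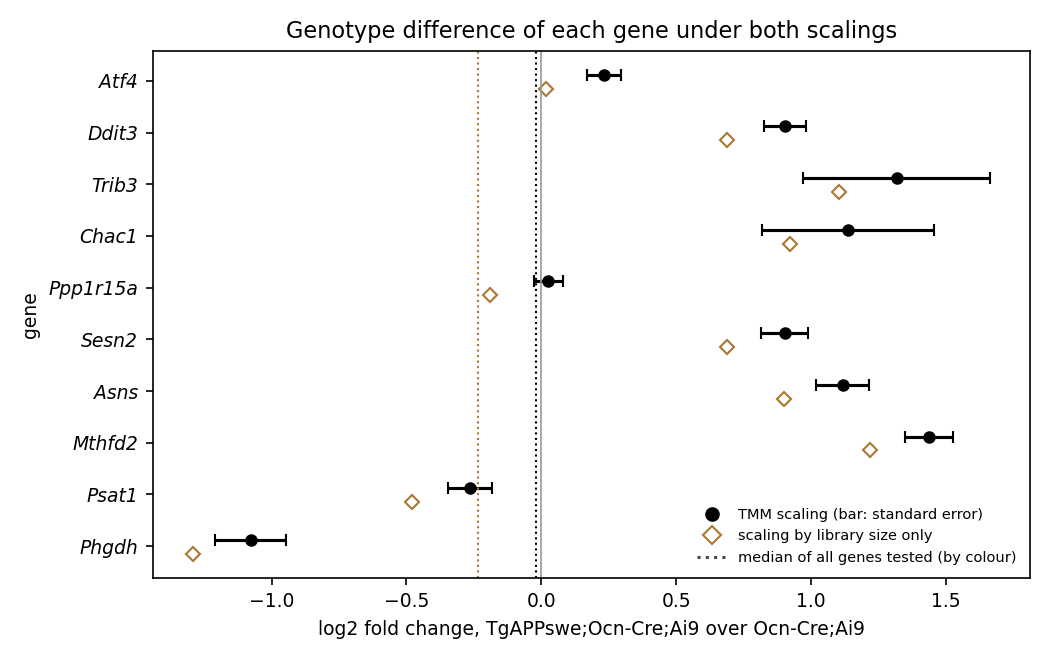
Log2 fold change (horizontal axis) of each of the 10 genes, APPswe+ over control, with the standard error as a bar under TMM scaling and as an open diamond under scaling by library size only. Dotted lines mark the median of all 12701 genes under each scaling, and 6 genes lie right of both lines by a wide margin, from Ddit3 and Sesn2 at 0.90 to Mthfd2 at 1.44 (TMM).

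FPKM, the scale on which levels of different genes can be set side by side, follows the library size scaling. On this scale 6 of the 10 genes had every APPswe+ library above every control library (Ddit3, Trib3, Chac1, Asns, Sesn2 and Mthfd2), 3 had every one below (Psat1, Phgdh and Ppp1r15a, the last near 0 under TMM) and Atf4 overlapped. Of all genes tested, 24.0% lay wholly above and 48.3% wholly below.

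Atf4 was by far the most abundant of the 10 (GRCm38, chr15:80255184-80257541, plus strand). Its level was 106.0, 105.5 and 105.5 FPKM in the controls and 109.7, 98.1 and 106.9 FPKM in APPswe+. The means, 105.7 ± 0.277 and 104.9 ± 6.08 FPKM (SD, n = 3 each), differed by less than the spread between the APPswe+ libraries. On the TMM scale its level was 153.3, 154.5 and 152.8 CPM in the controls and 192.5, 166.3 and 182.5 CPM in APPswe+, without overlap, with a log2 fold change of 0.23 (SE 0.0639, edgeR adjusted p = 0.0115). By library size only, the log2 fold change was 0.02 with an adjusted p of 0.805. The small rise of Atf4 mRNA was therefore a rise relative to the typical gene and not in its share of the library.

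**Figure D2:**
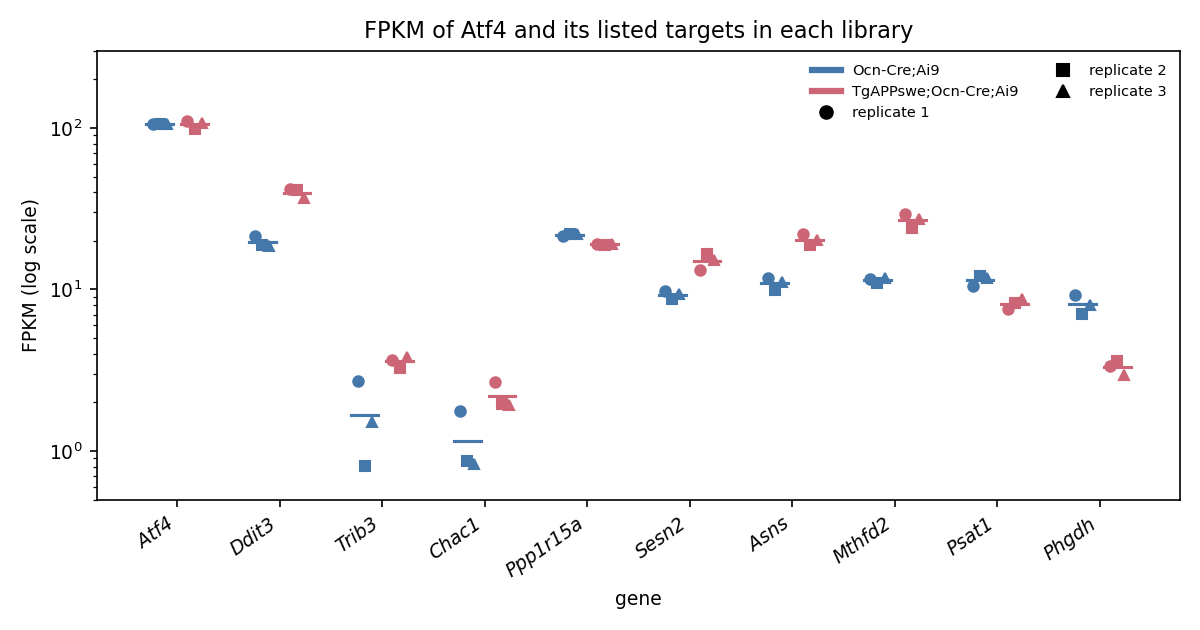
FPKM (vertical axis, log scale) of each of the 10 genes in each of the 6 libraries, with points for libraries and a line for the mean of each genotype. Atf4 overlaps between genotypes at about 105 FPKM, while 6 genes are higher and 3 lower in every APPswe+ library, of which Ppp1r15a is at 0.03 (log2) under TMM scaling.

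Next came the stress regulators downstream of ATF4. Ddit3 (chr10:127290774-127296288, plus strand) encodes CHOP, a bZIP factor linked to cell death under lasting stress. Its level was 21.3, 18.9 and 18.5 FPKM in the controls and 41.6, 41.0 and 36.8 FPKM in APPswe+. The lowest APPswe+ library thus stood well above the highest control. The means were 19.6 ± 1.51 and 39.8 ± 2.60 FPKM (SD, n = 3 each), and the log2 fold change on TMM-scaled counts was 0.90 (SE 0.0769, edgeR adjusted p = 1.57e-05). By library size only the counts gave 0.69, less than the 1.02 that limma gave on log2(FPKM + 0.1), since the transcript length implied by the deposited values (counts divided by FPKM and library total) differed between genotypes. It was 1060, 1099 and 1132 bases in the controls and 873, 857 and 877 bases in APPswe+, a ratio of 0.792. For the other 9 genes the ratio was 0.995 to 1.019, and for the 9403 genes that reached 100 counts in each library the 5th and 95th percentiles were 0.952 and 1.023. The GENCODE annotation lists 4 Ddit3 transcripts under 2 gene entries, of 890, 969, 600 and 105 bases, the 969-base one retaining an intron. The lengths implied in the controls exceed all 4, and the source of the difference was not tested. It also places 68 bases of Ddit3 over Mars on the opposite strand, and since it is not stated that strand was used in counting, reads there cannot be told apart.

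Trib3 (chr2:152337422-152344032, minus strand) encodes a pseudokinase that CHOP and ATF4 induce and that restrains both. It was low, at 2.70, 0.81 and 1.51 FPKM in the controls and 3.68, 3.29 and 3.82 FPKM in APPswe+. The controls were widely spread among themselves, but none reached the APPswe+ libraries. From 1.67 ± 0.956 FPKM the mean went to 3.60 ± 0.275 FPKM (SD, n = 3 each), with a log2 fold change of 1.32 (SE 0.346, edgeR adjusted p = 0.00937). The call held in each of the 14 other settings tried, with 1.84 without Ocn-Cre;Ai9 replicate 1, the highest control, and 0.98 without replicate 2, the lowest.

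Chac1 (chr2:119351229-119354381, plus strand) encodes an enzyme that degrades glutathione. It was the least abundant of the 10 on average in both genotypes, at 1.77, 0.87 and 0.83 FPKM in the controls and 2.69, 1.95 and 1.94 FPKM in APPswe+. Every APPswe+ library was above every control, the nearest pair being 1.94 and 1.77 FPKM. The log2 fold change was 1.14 (SE 0.319, edgeR adjusted p = 0.0127). Without Ocn-Cre;Ai9 replicate 3 it was 0.93 and did not pass (adjusted p = 0.0522).

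Sesn2 (chr4:132492032-132510501, minus strand) encodes sestrin 2, a leucine-responsive inhibitor of mTORC1. Its FPKM was 9.81, 8.77 and 9.33 in the controls and 13.2, 16.5 and 15.3 in APPswe+, so the genotypes were apart, with more spread in APPswe+. The log2 fold change was 0.90 (SE 0.0864, edgeR adjusted p = 3.08e-05). The annotation places Gm12981 over 6089 bases of the Sesn2 span on the same strand.

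Ppp1r15a (chr7:45522916-45526268, minus strand) encodes GADD34, the inducible phosphatase subunit that reverses eIF2 phosphorylation and so closes the loop. Its FPKM was 21.5, 21.9 and 21.9 in the controls and 19.2, 18.9 and 19.2 in APPswe+. The libraries of each genotype lay close together, and the APPswe+ libraries were the lower. On the TMM scale, however, the log2 fold change was 0.03 (SE 0.0535, edgeR adjusted p = 0.702), and by library size only it was -0.19 (adjusted p = 0.00952). In neither scaling did Ppp1r15a rise past the test, in contrast to Ddit3, Trib3, Chac1 and Sesn2. Tulp2 overlaps 717 of its bases on the opposite strand.

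The amino acid and folate enzymes went in both directions. Asns (chr6:7675169-7693254, minus strand) encodes asparagine synthetase, a standard readout of the amino acid response. Its FPKM was 11.8, 9.88 and 11.1 in the controls and 22.2, 18.8 and 20.1 in APPswe+, wide apart. The means were 10.9 ± 0.956 and 20.4 ± 1.70 FPKM (SD, n = 3 each) and the log2 fold change was 1.12 (SE 0.0982, edgeR adjusted p = 1.89e-05).

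Mthfd2 (chr6:83305691-83325908, minus strand) encodes the mitochondrial folate enzyme that oxidises methylene-tetrahydrofolate, high in dividing cells. Its FPKM was 11.6, 11.0 and 11.7 in the controls and 29.2, 24.1 and 27.2 in APPswe+. The control libraries agreed closely and every APPswe+ library was above 24. With means of 11.5 ± 0.389 and 26.8 ± 2.58 FPKM (SD, n = 3 each), it had the largest log2 fold change of the 10, 1.44 (SE 0.0901, edgeR adjusted p = 2.77e-06). Without Ocn-Cre;Ai9 replicate 1, those of Trib3 (1.84) and Chac1 (1.57) were larger than that of Mthfd2 (1.44). Mthfd2 rose while all 10 proliferation markers fell, and a link between them was not tested. Gm43890 overlaps 2799 bases of its span on the same strand.

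Phgdh (chr3:98313170-98339990, minus strand) encodes phosphoglycerate dehydrogenase, which commits glycolytic carbon to serine. Its FPKM was 9.19, 7.08 and 8.02 in the controls and 3.37, 3.60 and 2.94 in APPswe+, every APPswe+ library being below every control. The means were 8.10 ± 1.06 and 3.30 ± 0.335 FPKM (SD, n = 3 each), with a log2 fold change of -1.08 (SE 0.133, edgeR adjusted p = 0.000137). Without Ocn-Cre;Ai9 replicate 1 or TgAPPswe;Ocn-Cre;Ai9 replicate 3 the fold change was just short of -1, still past the test on p.

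Psat1 (chr19:15904678-15947337, minus strand), the aminotransferase of the next step towards serine, moved the same way by less. Its FPKM was 10.5, 12.1 and 11.7 in the controls and 7.61, 8.23 and 8.68 in APPswe+. The genotypes did not overlap on this scale, and the log2 fold change was -0.26 (SE 0.0802, edgeR adjusted p = 0.0184). The call was lost in DESeq2 (-0.25, adjusted p = 0.0544) and without Ocn-Cre;Ai9 replicate 2 (-0.23, adjusted p = 0.0671), Ocn-Cre;Ai9 replicate 3 (-0.26, adjusted p = 0.0565) or TgAPPswe;Ocn-Cre;Ai9 replicate 1 (-0.23, adjusted p = 0.0618). The pseudogene Gm3329 overlaps 556 bases of its span on the opposite strand.

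The order of the levels therefore differed between genotypes. In the controls, FPKM fell from Atf4 to Ppp1r15a to Ddit3, then to Psat1, Mthfd2 and Asns, whose ranges overlapped, then to Sesn2 and Phgdh, which overlapped, and last to Trib3 and Chac1, which overlapped. In APPswe+ the order was Atf4, Ddit3, Mthfd2, then Asns and Ppp1r15a, which overlapped, then Sesn2 and Psat1, then Trib3 and Phgdh, which overlapped, and Chac1. Mthfd2 thus went from the level of Psat1, at means of 11.5 and 11.4 FPKM in the controls, to 26.8 beside 8.17 FPKM in APPswe+.

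A ratio of counts within a library does not depend on how libraries are scaled, so each target was also set against Atf4. Per 100 Atf4 counts, Mthfd2 had 14.3, 13.3 and 14.3 counts in the controls and 33.4, 30.7 and 32.1 in APPswe+, a log2 difference of 1.20. For Trib3 the ratio was 2.01 ± 1.15 and 4.26 ± 0.166 (SD, n = 3 each here and below), with single controls from 0.971 to 3.25. Its log2 difference was 1.25, above that of Mthfd2. Asns went from 12.3 ± 1.14 to 22.7 ± 0.847 counts per 100 Atf4 counts, Ddit3 from 13.0 ± 0.675 to 20.7 ± 1.69, Sesn2 from 14.6 ± 0.907 to 23.4 ± 3.90 and Chac1 from 1.05 ± 0.486 to 1.96 ± 0.309. These 6 ratios were higher in every APPswe+ library, as were 22.0% of the ratios of all 12620 tested genes with a count in every library. The ratio of Ppp1r15a was lower in every one, at 29.9 ± 0.244 and 25.9 ± 1.24, as were those of Psat1, 14.6 ± 0.994 and 10.4 ± 1.03, and Phgdh, 8.84 ± 1.20 and 3.58 ± 0.513, where 48.0% of all genes were. An exact two-sided permutation test gave p = 0.1 for each of the 9 ratios, the smallest value that 3 against 3 libraries allow, and 0.1 after adjustment over the 9. The median gene had a log2 difference of -0.25 against Atf4, so that of Ppp1r15a, -0.21, was close to the typical gene, while those of Psat1 (-0.49) and Phgdh (-1.31) were further down.

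**Figure D3:**
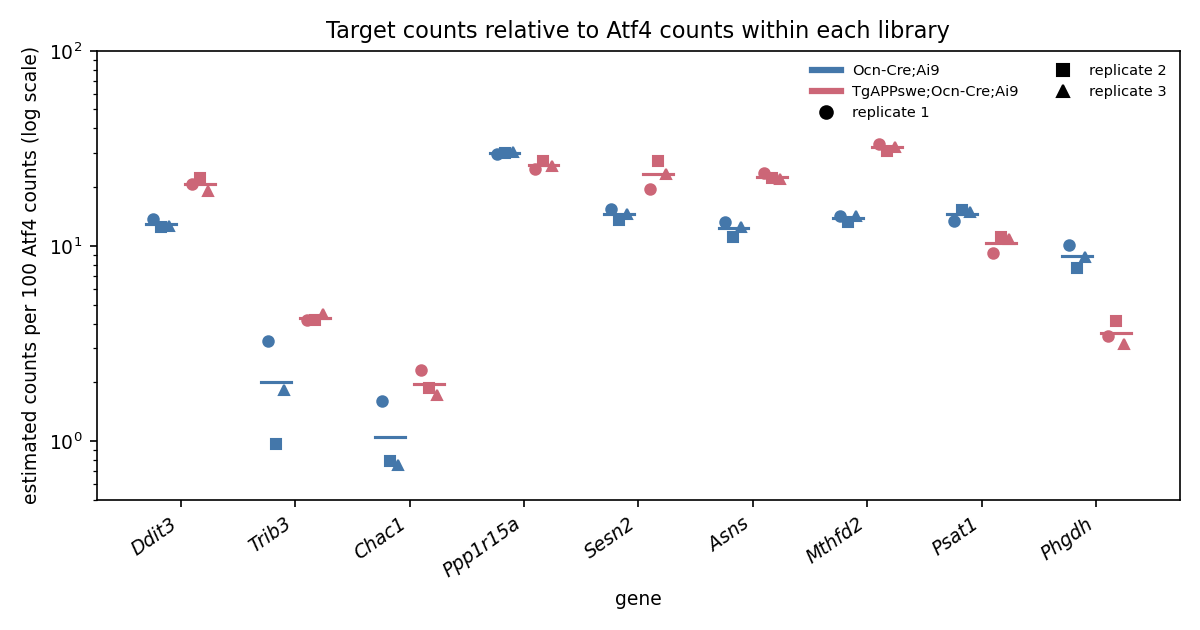
Counts of each target per 100 Atf4 counts (vertical axis, log scale) in each library, with points for libraries and a line for the mean of each genotype. The genotypes are apart for all 9 targets, with 6 higher in APPswe+ (Mthfd2 from about 14 to about 32) and 3 lower (Phgdh from about 9 to about 4), against 22.0% and 48.0% of all genes.

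The wider pathway was read from 7 lists of 95 genes, of which 94 were in the table (Fgf21 was not) and 89 were tested. Of the 89, 48 rose, 16 fell and 25 did not pass, and the median log2 fold change was 0.28, where 32.5% of all genes rose and 31.5% fell. With the fold, 13 rose and 6 fell, against 8.90% and 9.20% of all genes. By library size only, 39 rose and 29 fell, and the median was 0.06 against -0.23 for all genes, of which 22.1% rose and 45.9% fell under that scaling.

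The eIF2 kinases did not rise together. Of the 4 kinases and the mitochondrial relay of Oma1 and Dele1, 1 gene rose and 3 fell, where 32.5% of all genes rose and 31.5% fell. Eif2ak2, the interferon-inducible kinase PKR that senses double-stranded RNA, rose from 12.9 ± 1.36 to 30.6 ± 3.45 FPKM (SD, n = 3 each), a log2 fold change of 1.46 (SE 0.0973, edgeR adjusted p = 3.99e-06), and its counts were not whole numbers, so that some reads were shared with other loci. Eif2ak3, the PERK kinase of the endoplasmic reticulum, fell with a log2 fold change of -0.36 (adjusted p = 0.00421). Eif2ak4, the GCN2 kinase of amino acid shortage, fell as well (-0.33, adjusted p = 0.00983). Dele1, the messenger of mitochondrial stress, fell (-0.26, adjusted p = 0.00932), while its protease Oma1 was at 0.01 and Eif2ak1, the heme-sensing kinase that DELE1 activates, at -0.04, neither past the test. By library size only, Eif2ak1 and Oma1 were called lower too, at -0.25 and -0.21, so 5 of the 6 genes then fell, where 45.9% of all genes did.

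The list of genes around eIF2 itself mostly rose, with 11 of 13 genes raised, none lowered and a median of 0.51. Of all genes, 32.5% rose and 31.5% fell. By library size only 8 genes of the list were raised and 1 lowered, where 22.1% and 45.9% of all genes were. Of its 8 genes for subunits of eIF2 and its exchange factor eIF2B, 7 rose, and of the 5 others (Ppp1r15b, Dnajc3, Nck1, Impact and Eif2a), which encode a phosphatase subunit, regulators of the kinases or phosphatase and a separate initiation factor, 4 rose. Eif2s1, which encodes the eIF2 subunit that is phosphorylated, had the largest change of the list. It rose from 25.2 ± 0.680 to 50.1 ± 2.73 FPKM (SD, n = 3 each), with a log2 fold change of 1.21 (SE 0.0632, edgeR adjusted p = 1.04e-06). Eif2s2 (0.72), Eif2s3x (0.65) and the eIF2B subunit gene Eif2b3 (0.69) rose by less. Ppp1r15b, the constitutive counterpart of Ppp1r15a, rose with a log2 fold change of 0.61 (SE 0.0605, adjusted p = 3.74e-05), a gene past the test where Ppp1r15a was not, though the difference between the pair was not tested.

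Among 10 bZIP genes whose products can pair with or act beside ATF4, 4 rose, 4 fell and 2 did not pass, where 32.5% and 31.5% of all genes rose and fell. Atf3, itself a target of ATF4, was at 62.8, 103.5 and 83.9 FPKM in the controls and 115.1, 112.3 and 110.2 FPKM in APPswe+, above every control, with a log2 fold change of 0.65 (SE 0.151, adjusted p = 0.00518). Batf3, best known from dendritic cells, had the largest change, from 1.96 ± 0.411 to 10.1 ± 1.22 FPKM (SD, n = 3 each), a log2 fold change of 2.58. Nfe2l1 (1.39) and Jdp2 (0.88) rose also. Fos (-1.60), Jun (-0.98), Cebpg (-0.81) and Nfe2l2 (-0.45), the antioxidant regulator NRF2, fell. Atf5 and Cebpb, often induced with Ddit3, were at 0.02 and 0.00 and did not pass, nor did they at -0.19 and -0.21 by library size only.

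The other genes of serine, one-carbon and proline synthesis gave no common direction, as Phgdh, Psat1 and Mthfd2 did not. Of 12 tested, 2 rose, 3 fell and 7 did not pass, with a median of -0.08, where 32.5% of all genes rose and 31.5% fell (1 raised and 7 lowered by library size only, where 22.1% and 45.9% did). Aldh18a1, the first enzyme of proline synthesis, rose (0.73), and the aminotransferase genes Bcat1 (-1.09), Gpt2 (-0.39) and Got1 (-0.25) fell. The call of Got1 was lost without Ocn-Cre;Ai9 replicate 2 (-0.20, adjusted p = 0.0559), Ocn-Cre;Ai9 replicate 3 (-0.23, adjusted p = 0.0516) or TgAPPswe;Ocn-Cre;Ai9 replicate 3 (-0.22, adjusted p = 0.0658).

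Of 10 amino acid transporters tested, 6 rose and 2 fell, with a median of 0.55, where 32.5% of all genes rose and 31.5% fell. By library size only 5 rose and 3 fell, where 22.1% and 45.9% of all genes did. Slc7a11, the cystine importer, was at 0.39, 0.49 and 0.76 FPKM in the controls and 5.20, 1.44 and 3.45 FPKM in APPswe+, apart but with wide spread, and its log2 fold change was 2.87 (SE 0.469, edgeR adjusted p = 0.000735), from counts that were not whole. Slc1a4 (1.32) and the arginine carrier Slc7a1 (1.30) rose, whereas the glutamine carrier Slc1a5 fell (-1.57, SE 0.0752). Of 20 cytosolic aminoacyl-tRNA synthetases, 16 rose, none fell and the median was 0.51, against the same shares of all genes (13 rose and 2 fell by library size only). Aars (1.06) led the list, before Hars (0.81), Eprs (0.75) and Wars (0.64).

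Of 19 other targets of ATF4 or CHOP that were tested, 8 rose, 4 fell and 7 did not pass, with a median of 0.01, where 32.5% and 31.5% of all genes rose and fell (7 and 7 by library size only, where 22.1% and 45.9% of all genes did). Herpud1, of endoplasmic reticulum protein degradation, rose with a log2 fold change of 1.99 (SE 0.0871, edgeR adjusted p = 4.04e-07), and the stress-induced nuclear protein gene Nupr1 rose with 1.81. Vegfa (-1.43) and Bcl2l11 (-1.34), which encodes the CHOP-induced death protein BIM, fell, the latter from counts that were not whole.

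**Figure D4:**
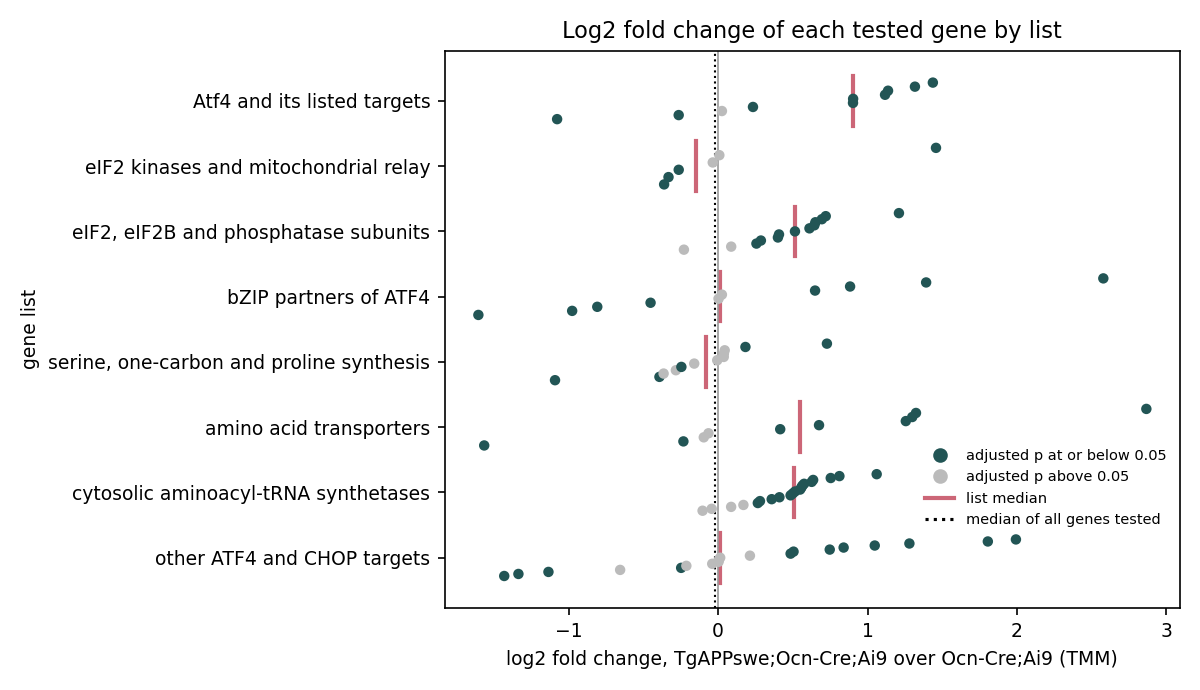
Log2 fold change (horizontal axis, TMM scaling) of each tested gene by list (vertical axis), with filled dark points at an adjusted p at or below 0.05, grey points above it, and a bar for the median of the list. The lists around eIF2 and of tRNA synthetases lie mostly right of the median of all genes (dotted), the 10 genes described above have a median of 0.90, and the kinase and serine lists have medians of -0.15 and -0.08.

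Of the 94 list genes in the table, 73 had a RefSeq window, less than the 80% set as needed to read a share of the motif over a set, so none is given for the lists. Among the genes named here that had a match, the following windows are shown beside those of Asns, Chac1 and Trib3, chosen after their values were seen. Slc1a4, Jdp2, Aars and Eif2s3x, which rose, also had a match and are not shown. Of those shown, Atf3, Nupr1, Herpud1 and Slc7a11 rose, and Got1 fell. Named genes without a match or without a window are not listed, so these windows cannot show whether a match goes with direction. Read along the gene, the motif began 110 bases before the start in Atf3 (chr1:191183426-191183453) and in Nupr1 (chr7:126625563-126625590), 112 bases before it in Herpud1 (chr8:94386307-94386334) and 102 bases before it in Got1 (chr19:43524690-43524717), each on the strand opposite to the gene. In Slc7a11 a match lay on each strand, and the one on the strand of the gene began 66 bases before the start (chr3:50443662-50443689).
Atf3: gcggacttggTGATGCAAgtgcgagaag
Nupr1: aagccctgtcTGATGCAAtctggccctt
Herpud1: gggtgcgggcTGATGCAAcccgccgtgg
Slc7a11: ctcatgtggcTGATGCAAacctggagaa
Got1: gaggcttgtaTGATGCAAccaatgcaat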

How the data were processed

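Total RNA of 6 libraries was sequenced by the authors on a DNBSEQ-G400. Per the labels, their processing notes name HISAT2 2.0.4, Bowtie2 2.2.5, RSEM 1.2.12, DESeq2 1.4.5 and mm10. What the authors deposited were estimated counts per gene, fractional for 13.3% to 14.4% of genes in a library but for none of the 10 genes here, and FPKM values rounded to 2 decimals. Their further table of FPKM with a log2 ratio and a p-value per gene was not used.

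Estimated counts were rounded, although raw counts had been planned for, and fitted over all genes and 6 libraries by the quasi-likelihood method of edgeR 4.0.16 (R 4.3.3), with filterByExpr and TMM. The biological coefficient of variation was 9.85%. The code was tested on simulated data. Alternatives were RLE size factors, library size only, DESeq2 1.42.0, no filter, at least 10 counts in every library, a replicate block, limma 3.58.1 on log2(FPKM + 1) and log2(FPKM + 0.1), and each library left out. Gene spans and transcripts come from GENCODE (GRCm38) and promoter windows from RefSeq. Figures were drawn in Python 3.11.15 with matplotlib 3.10.9. The detection limit of 3 counts covers counting error only.

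The 10 genes and all lists were chosen with earlier results of these data known. The text names all 10, every listed kinase, relay and bZIP gene, Ppp1r15b and Eif2s1, and up to 4 genes of each other list with the largest change among those past the test with at least 10 counts in every library. App, Bglap, Fgf21, Lyz2, 4 other myeloid markers, the rest of the list around eIF2 and the overlapping genes are named outside that rule.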

Additional observations from a re-analysis of the deposited data

How the results depend on the processing

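Of the values for the 10 genes, 56 of 60 kept direction and side of the threshold when 1 library was left out, and 73 of 80 under the other settings. Atf4 turned to -0.012 in limma with either pseudocount, and Ppp1r15a to -0.19 by library size only, -0.19 in limma with 0.1 and -0.18 with 1, while among the other named genes Oma1 turned to -0.21 by library size only. Atf5 and Cebpb, past the test in no setting, changed sign there too (-0.19 and -0.21). The number of the 10 that fell was 1 in DESeq2 and 1 to 2 with a library left out (1 without Ocn-Cre;Ai9 replicate 2 or 3 or TgAPPswe;Ocn-Cre;Ai9 replicate 1). The number that rose with the fold was 2 by library size only, 1 in limma with a pseudocount of 1, and 2 to 4 with a library left out (2 without Ocn-Cre;Ai9 replicate 2), and the number that fell with it was 0 to 1 (0 without Ocn-Cre;Ai9 replicate 1 or TgAPPswe;Ocn-Cre;Ai9 replicate 3). Of the pathway genes, 29 fell by library size only and 27 in limma with either pseudocount. By library size only the median of all genes was -0.23, against -0.02 with TMM, and beyond this shift the cause was not tested. With the replicate block, 7 of the 10 rose and 2 fell, as without it. Deviations of same-numbered libraries correlated at 0.08, -0.02 and 0.26 over 9257 genes. Not every library correlated best with its own number, but 3 libraries per genotype are too few to tell whether the numbers pair the libraries. The low counts of Trib3 and Chac1 limit the precision of their fold changes.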
